A study of Mus musculus with 18 samples.

Results

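The genes described here are 9 transcriptional targets of p53 that act in cell death: Fas, Tnfrsf10b, Bax, Bbc3, Pmaip1, Apaf1, Perp, Aen and Zmat3. They were chosen by name, with earlier results of these data known, so their counts and medians beside those of all genes are a description. Every probe whose platform annotation carries 1 of these symbols was taken from the table of intensities that had not been normalized. Of the 9 genes, 8 had a probe, with 23 probes among the 45281 on the array, and Bax was not analysed here. Probes were kept if some group had a detection p-value under 0.05 on each of its 3 arrays. This left 17 of the 23 probes and 7 of the 8 genes, since the single Perp probe was not kept.

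Transcripts were measured on 18 Illumina Mouse-6 BeadChips, which are arrays of 1 colour, in CGR8 cells, which are embryonic stem cells of mouse strain 129P2/Ola. There were 3 stable lines, each carrying an integrated siRNA that tetracycline (Tc) induces. The siRNA was directed against EGFP, which has no counterpart in the mouse genome, or against nucleolin (Ncl), an abundant nucleolar protein, with a different siRNA in the Ncl-1 line and in the Ncl-2 line. Each line was cultured for 3 days without Tc (-Tc) or with it (+Tc), with 3 replicates per group, so the 6 groups are EGFP -Tc, EGFP +Tc, Ncl-1 -Tc, Ncl-1 +Tc, Ncl-2 -Tc and Ncl-2 +Tc. All groups, controls included, carry an inducible siRNA vector. The labels do not say whether a line is 1 clone or whether replicates were separate cultures, so the p-values rest on a spread between samples that may be technical in part.

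p53 is a transcription factor that is held at a low level by Mdm2 and accumulates after DNA damage or nucleolar stress. Its death targets act at different steps. Fas and Tnfrsf10b are death receptors at the cell surface, which activate caspase-8 when a ligand binds them. Bax, Bbc3 (Puma) and Pmaip1 (Noxa) belong to the Bcl2 family and promote the release of cytochrome c from mitochondria, and Apaf1 binds the released cytochrome c to form the apoptosome, which activates caspase-9. Perp is a membrane protein, Aen is a nuclease, and Zmat3 (Wig1) is a zinc-finger protein that binds RNA.

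Values are log2 signals after background correction and quantile normalization, and a change is the mean of the +Tc arrays minus the mean of the -Tc arrays, ± the standard error of the fit. A change passed the test when limma's p, adjusted by Benjamini-Hochberg over all 10557 genes tested, was below 0.05. An offset added during background correction makes the changes of dim probes understated. Levels of different genes are not compared, because each probe has its own response.

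The labels of the induced nucleolin arrays were checked on their target, Ncl. This check cannot tell the EGFP groups and the uninduced lines apart, nor Ncl-1 from Ncl-2, and the target of the EGFP siRNA was not examined. Ncl gave log2 signals of 7.10, 6.48 and 7.52 in the 3 Ncl-1 +Tc arrays against 11.21, 11.80 and 12.10 in the Ncl-1 -Tc arrays. It gave 7.12, 6.42 and 7.43 in Ncl-2 +Tc against 10.93, 11.39 and 11.77 in Ncl-2 -Tc. Ncl fell by 4.67 ± 0.36 in the Ncl-1 line (adjusted p by limma = 2.2e-06) and by 4.37 ± 0.36 in Ncl-2 cells (adjusted p = 4.18e-06). In the EGFP line the change was 0.07 ± 0.36.

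The arrays of replicate 3 stood apart from the rest in all 6 groups. Their mean intensities before normalization were 625 to 837, against 280 to 596 for replicates 1 and 2. On the first principal component, which held 45.6% of the variance, they lay at 31.5 to 73.6 against -54.7 to -4.55. Arrays of the same replicate number deviated from their group means together, so the fit that takes the replicate number as its block is given beside a result whose call it changes. Because replicate 3 stood apart, this does not show that replicates 1 and 2 are paired by number. All 10 embryonic stem cell markers examined were detected on all 18 arrays. Of 7 fibroblast or feeder markers, Thy1 was detected on all arrays, Dcn and Lum on none and the others on 1 or 2. Of 6 primitive endoderm markers, Dab2 was detected on 18 arrays, Gata6 on 17, Sox7 on 15, Sox17 on 6, Gata4 on 1 and Foxa2 on none. Their summed linear signal was 569 to 1260 in EGFP -Tc, 352 to 489 in Ncl-1 -Tc and 287 to 400 in Ncl-2 -Tc. The summed linear signal of 7 trophectoderm markers was 477 to 690 in Ncl-1 -Tc and 477 to 2570 in Ncl-1 +Tc. It was 576 to 881 in Ncl-2 -Tc against 853 to 2443 in Ncl-2 +Tc, and 657 to 906 in EGFP -Tc against 698 to 848 in EGFP +Tc. Krt8 and Krt18 were detected on all 18 arrays, Krt7 on 15, Eomes on 8, Cdx2 on 5, Hand1 on 3 and Elf5 on 1. Of the 3 trophectoderm markers tested, 1 was called higher and 0 lower in each nucleolin line, beside 5.38% and 6% of all genes called higher. The part of these markers in the results below was not tested. In such bulk samples, a change in the share of cells that make a transcript and a change in transcript per cell cannot be told apart.

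With induction of a nucleolin siRNA, the death receptor Fas rose 14.1-fold in the Ncl-1 line and 15.4-fold in the Ncl-2 line by its brighter probe. Its second kept probe gave 7.8-fold and 9.0-fold. The apoptosome gene Apaf1 rose 3.50-fold and 3.88-fold. Aen rose 1.85-fold in the Ncl-2 line. Of the 7 genes tested, 2 were called higher in the Ncl-1 line and 3 in the Ncl-2 line, and 0 were called lower in either. Over all genes, 5.38% were called higher and 2.74% lower in the Ncl-1 line, and 6% higher and 3.14% lower in the Ncl-2 line. With each array scaled to its median in place of quantile normalization, the share of calls that were higher moved from 66.3% to 84.3% in the Ncl-1 line. In the Ncl-2 line it moved from 65.7% to 70.2%. With the replicate block this share was lower, at 53.25% in the Ncl-1 line and 51.48% in the Ncl-2 line. The median change of the 7 genes was 0.88 in the Ncl-1 line and 0.97 in the Ncl-2 line, beside medians of -0.04 and -0.05 over all genes. In the EGFP line their median was -0.00, and 0 of the 7 genes passed, with 0% of all genes called higher and 0% lower. At an unadjusted p below 0.05, 0 of the 7 and 13 of all 10557 genes passed there with limma. With the replicate block the counts were 0 and 75. Unchanged genes alone would pass at a rate near 0.05, far above these counts. The test was therefore conservative here, and the counts do not show that responses were absent.

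**Figure D1:**
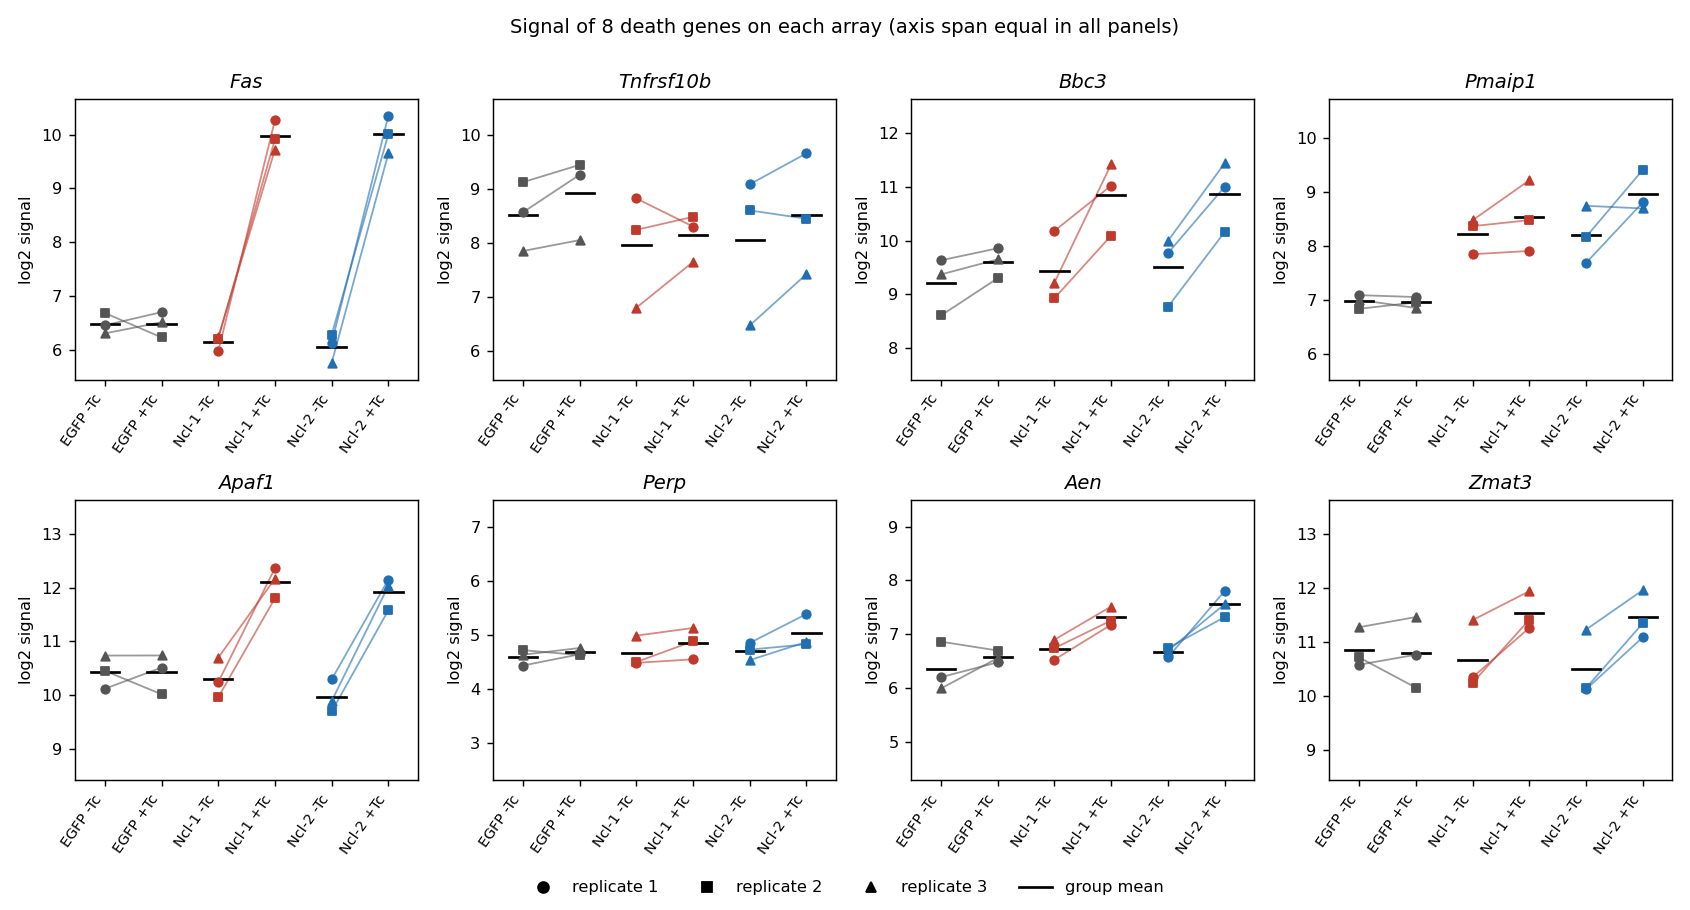
Log2 signal of the probe that represents each gene on every array (y axis), by group (x axis), with lines joining arrays of the same replicate number and a bar at each group mean. The +Tc arrays of the nucleolin lines lie at 9.65 to 10.35 for Fas and at 11.58 to 12.36 for Apaf1, above all other arrays of the same gene, while Perp stays between 4.43 and 5.39.

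Fas is the receptor for Fas ligand, and its promoter is shown because Fas had the largest change of the 7 genes. The sequence is the upstream part of the RefSeq promoter window of Fas on GRCm38.p6, plus strand, at chr19:34290409-34290646, and capitals mark a GC box, the letters GGGCGG that Sp1-type factors bind. A GC box on either strand was present in 35.7% of 32851 promoter windows of 300 bases, and no p53 half-site was found in the whole Fas window. A p53 half-site was searched on both strands by its consensus, within the windows only, and 8.36% of all windows held a match.
Fas: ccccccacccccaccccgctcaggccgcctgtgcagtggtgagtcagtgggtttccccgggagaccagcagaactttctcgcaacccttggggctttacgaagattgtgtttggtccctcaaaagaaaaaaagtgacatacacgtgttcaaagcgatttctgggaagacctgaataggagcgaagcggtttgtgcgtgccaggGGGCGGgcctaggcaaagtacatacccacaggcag

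Fas was measured by 2 kept probes. The brighter probe, ILMN_2902979, gave log2 signals of 5.98, 6.21 and 6.25 in Ncl-1 -Tc and 10.27, 9.91 and 9.72 in Ncl-1 +Tc. It gave 6.13, 6.29 and 5.76 in Ncl-2 -Tc and 10.35, 10.01 and 9.65 in Ncl-2 +Tc. Every induced array of the nucleolin lines was far above every uninduced one. The EGFP line read 6.46, 6.69 and 6.31 without Tc and 6.71, 6.24 and 6.52 with it, so its groups overlapped. The change was 3.82 ± 0.23 in the Ncl-1 line (14.1-fold, adjusted p by limma = 4.48e-07) and 3.94 ± 0.23 in the Ncl-2 line (15.4-fold, adjusted p = 2.86e-07), against -0.00 ± 0.23 in the EGFP line. The mean response of the nucleolin lines exceeded that of the EGFP line by 3.88 ± 0.28 (adjusted p by limma = 6.4e-06).

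The second Fas probe gave lower signals and moved the same way. It read 5.36, 5.45 and 5.21 in Ncl-1 -Tc and 7.99, 8.35 and 8.59 in Ncl-1 +Tc. In the Ncl-2 line it read 4.72, 5.32 and 5.51 without Tc and 8.26, 8.51 and 8.29 with it, and the first of these was not above background. Neither pair of groups overlapped. Its changes were 2.97 ± 0.23 (adjusted p over all 19154 kept probes by limma = 4.02e-06) and 3.17 ± 0.23 (adjusted p = 2.31e-06). Over all kept probes, 3.89% were called higher in the Ncl-1 line and 4.24% in the Ncl-2 line. The other Fas probes were not kept.

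Tnfrsf10b, the mouse receptor for the death ligand Trail, gave different readings from its 3 kept probes. The brightest probe, ILMN_2945095, read 8.82, 8.24 and 6.80 in Ncl-1 -Tc and 8.30, 8.48 and 7.65 in Ncl-1 +Tc. It read 9.09, 8.60 and 6.47 in Ncl-2 -Tc and 9.66, 8.45 and 7.42 in Ncl-2 +Tc, and in both lines the groups overlapped. The EGFP arrays read 8.57, 9.13 and 7.85 without Tc and 9.26, 9.45 and 8.05 with it. Its signal on replicate 3 arrays averaged 1.47 below that on the others, so the spread within groups was wide. The change was 0.19 ± 0.71 in the Ncl-1 line (adjusted p by limma = 0.939), 0.46 ± 0.71 in Ncl-2 cells (adjusted p = 0.851) and 0.41 ± 0.71 in the EGFP line.

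The other Tnfrsf10b probes varied less between replicates. The second, ILMN_2455181, read 7.27, 6.61 and 6.72 in Ncl-1 -Tc against 7.75, 7.17 and 7.54 in Ncl-1 +Tc. It read 7.53, 6.71 and 6.61 in Ncl-2 -Tc against 7.92, 7.38 and 7.61 in Ncl-2 +Tc. On this probe the induced array was above the uninduced array of the same number in all 3 pairs of both lines, although the groups overlapped. The changes were 0.62 ± 0.29 in the Ncl-1 line (adjusted p by limma over all probes = 0.298, and 0.011 with the replicate block) and 0.69 ± 0.29 in Ncl-2 cells (adjusted p = 0.222, and 0.0053 with the block).

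The third Tnfrsf10b probe, ILMN_2460875, read 5.96, 6.01 and 5.86 in Ncl-1 -Tc and 6.68, 6.48 and 7.16 in Ncl-1 +Tc. In the Ncl-2 line it read 5.20, 6.29 and 6.01, the first not above background, and then 6.61, 6.53 and 7.30. The groups did not overlap in either line. The changes were 0.83 ± 0.33 (adjusted p by limma = 0.193, and 0.043 with the replicate block) and 0.98 ± 0.33 (adjusted p = 0.104, and 0.018 with the block). In the EGFP line neither probe passed with or without the block.

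**Figure D2:**
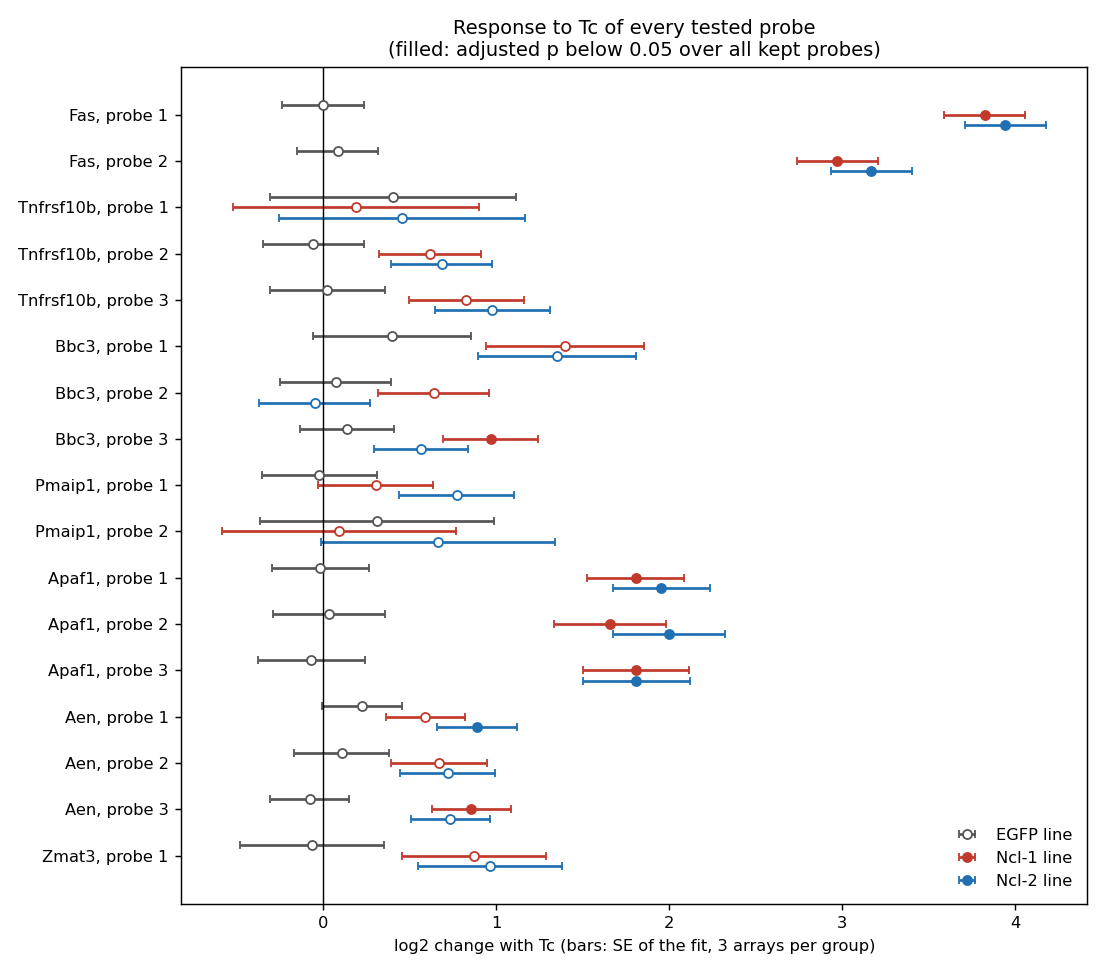
Log2 change with Tc (x axis) of each of the 17 kept probes (y axis) in the EGFP, Ncl-1 and Ncl-2 lines, with bars of 1 standard error of the fit and filled points where the adjusted p over all kept probes was below 0.05. Both Fas probes lie between 2.97 and 3.94 and the 3 Apaf1 probes between 1.66 and 2.00 in the nucleolin lines, while the 3 Tnfrsf10b probes differ in size and in error. The dimmer Pmaip1 probe and the dimmest Aen probe were kept only through groups where they are high.

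Bbc3 encodes Puma, a BH3-only protein that binds and neutralizes the survival members of the Bcl2 family. Its brightest probe, ILMN_2920736, read 10.18, 8.93 and 9.22 in Ncl-1 -Tc and 11.02, 10.09 and 11.42 in Ncl-1 +Tc. It read 9.76, 8.77 and 9.99 in Ncl-2 -Tc and 10.996, 10.16 and 11.43 in Ncl-2 +Tc. The groups overlapped slightly in the Ncl-1 line and not in the Ncl-2 line, and the induced array was the higher one in all 3 numbered pairs of each. Values in EGFP cells were 9.63, 8.61 and 9.37 without Tc and 9.86, 9.30 and 9.65 with it.

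The Bbc3 change was 1.40 ± 0.45 in the Ncl-1 line (adjusted p by limma = 0.0727) and 1.35 ± 0.45 in Ncl-2 cells (adjusted p = 0.0794), so neither passed. With the replicate number as a block both passed (adjusted p = 0.000401 and 0.000492). The Ncl-1 value also passed without replicate 1 of Ncl-1 -Tc (1.77, adjusted p = 0.038) or replicate 2 of Ncl-1 +Tc (1.78, adjusted p = 0.0362), and with the mean of all kept probes (1.00, adjusted p = 0.0324). The Ncl-2 value passed without replicate 2 of Ncl-2 +Tc (1.71, adjusted p = 0.0484). The EGFP line had a change of 0.40 ± 0.45. The nucleolin lines exceeded it by 0.98 ± 0.55 (adjusted p = 0.524, and 0.0305 with the block).

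The dimmer Bbc3 probes, all below a log2 signal of 7, moved less evenly. The probe ILMN_2690621 changed by 0.97 ± 0.27 in the Ncl-1 line (adjusted p by limma over all probes = 0.0495) and by 0.57 ± 0.27 in Ncl-2 cells (adjusted p = 0.294). The probe ILMN_2690620 had changes of 0.64 ± 0.32 (adjusted p = 0.338) and -0.05 ± 0.32 (adjusted p = 0.986).

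Pmaip1 encodes Noxa, another BH3-only protein, which binds Mcl1. Its uninduced signal was higher in the nucleolin lines, though neither difference from the EGFP line passed the test defined above. Its brighter probe, ILMN_2670625, read 7.08, 6.83 and 6.99 in EGFP -Tc, 7.84, 8.36 and 8.47 in Ncl-1 -Tc and 7.68, 8.16 and 8.74 in Ncl-2 -Tc. Both nucleolin lines lay above the EGFP line on every uninduced array. The differences from EGFP -Tc were 1.26 ± 0.33 for Ncl-1 (adjusted p by limma = 0.0936, and 0.0101 with the replicate block) and 1.23 ± 0.33 for Ncl-2 (adjusted p = 0.104, and 0.0101 with the block). The Ncl-1 difference passed without replicate 3 of Ncl-1 +Tc, an array that enters this contrast only through the shared spread (adjusted p = 0.0491). On the second, dimmer probe the differences were 0.81 ± 0.67 for Ncl-1 and 0.48 ± 0.67 for Ncl-2, and neither passed with or without the block. Over all genes, 0.587% were higher and 0.398% lower in uninduced Ncl-1 than in uninduced EGFP, and 0.464% were higher and 0.464% lower in uninduced Ncl-2. With the block, 4.11% and 5.76% were higher. The summed signal of the primitive endoderm markers was lower on every uninduced nucleolin array than on any EGFP -Tc array, and its part in these differences was not tested. These comparisons share the EGFP arrays, and the siRNA and the line cannot be told apart in them.

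With Tc, Pmaip1 read 7.90, 8.47 and 9.21 in the Ncl-1 line and 8.80, 9.41 and 8.69 in the Ncl-2 line, and in the EGFP line 7.05, 6.95 and 6.84. The induced and uninduced groups overlapped in all 3 lines. The change was 0.30 ± 0.33 in the Ncl-1 line (adjusted p by limma = 0.72), 0.77 ± 0.33 in Ncl-2 cells (adjusted p = 0.186, and 0.0467 with the replicate block) and -0.02 ± 0.33 in the EGFP line. The replicates of the Ncl-2 line did not move alike. On replicates 1 and 2 alone the Ncl-2 change was 1.18 (adjusted p = 0.0253), while replicate 3 gave a difference of -0.05. The second probe was above background on all 3 arrays of Ncl-2 +Tc and on only some arrays of each other group. It was thus kept only through the group where it is highest, and its changes of 0.09 ± 0.67 and 0.66 ± 0.67 are a description.

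Apaf1, the core of the apoptosome, was measured by 3 kept probes. The brightest, ILMN_3143577, read 10.24, 9.97 and 10.70 in Ncl-1 -Tc and 12.36, 11.80 and 12.17 in Ncl-1 +Tc. It read 10.30, 9.70 and 9.89 in Ncl-2 -Tc and 12.15, 11.58 and 12.03 in Ncl-2 +Tc. The induced arrays of both nucleolin lines were above all uninduced arrays. The EGFP line read 10.12, 10.46 and 10.74 without Tc and 10.52, 10.02 and 10.74 with it.

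Apaf1 rose by 1.81 ± 0.27 in the Ncl-1 line (3.50-fold, adjusted p by limma = 0.000615) and by 1.96 ± 0.27 in the Ncl-2 line (3.88-fold, adjusted p = 0.000379), and the EGFP line had a change of -0.01 ± 0.27. The nucleolin lines exceeded the EGFP line by 1.90 ± 0.34 (adjusted p = 0.00484), a difference that did not pass with median scaling (1.96, adjusted p = 0.0858). The other kept probes gave changes of like size. They were 1.66 ± 0.32 and 1.81 ± 0.31 in the Ncl-1 line (adjusted p by limma over all probes = 0.00601 and 0.00222) and 2.00 ± 0.32 and 1.81 ± 0.31 in Ncl-2 cells (adjusted p = 0.00151 and 0.00198).

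The promoter window of Apaf1 overlaps that of Ikbip, a gene transcribed the opposite way. The RefSeq windows of the genes on GRCm38.p6, minus strand for Apaf1 and plus strand for Ikbip, have 205 bases in common at chr10:91082789-91082993. A stretch of 30 bases from this shared region is shown, read on the Apaf1 (minus) strand at chr10:91082901-91082930, with a GC box in capitals. No p53 half-site was found in either window.
Apaf1: ggcgcgtagaggGGGCGGggccgagagtgc

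Ikbip, whose product interacts with an IkB kinase, was looked at among the nearest genes on each side of the 8 death genes with a probe, and it is named after its values were seen. Of 16 such neighbours 8 were tested, and 1 of them, Ikbip, was called higher in each nucleolin line, beside 5.38% and 6% of all genes. Ikbip read 8.17, 8.30 and 8.54 in Ncl-1 -Tc and 9.84, 9.59 and 9.44 in Ncl-1 +Tc. It read 8.75, 8.84 and 8.23 in Ncl-2 -Tc and 9.84, 9.96 and 9.51 in Ncl-2 +Tc. Neither pair of groups overlapped. The changes were 1.28 ± 0.21 (adjusted p by limma = 0.00122) and 1.16 ± 0.21 (adjusted p = 0.00247), against -0.05 ± 0.21 in the EGFP line, and the calls did not pass with median scaling (adjusted p = 0.052 and 0.143).

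**Figure D3:**
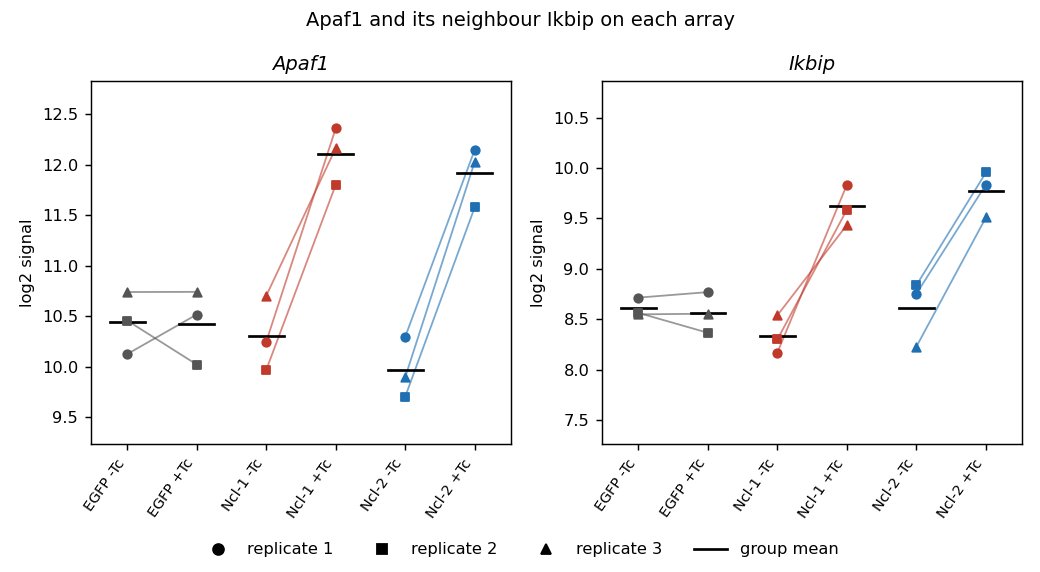
Log2 signal of Apaf1 and of its neighbour Ikbip on every array (y axes of equal span), by group (x axis), with lines joining arrays of the same replicate number and a bar at each group mean. In both genes the +Tc arrays of the nucleolin lines lie above all other arrays, at 11.58 to 12.36 for Apaf1 and 9.44 to 9.96 for Ikbip.

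Perp, a membrane protein of desmosomes that p53 induces in dying cells, stayed near background. Its log2 signals ranged from 4.43 to 5.39 over the 18 arrays. The probe was detected on 1 array, replicate 1 of Ncl-2 +Tc, at 5.39. It entered no test.

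Aen, also called Isg20l1, is a nuclease that p53 induces. Its brightest probe, ILMN_2924088, read 6.53, 6.75 and 6.90 in Ncl-1 -Tc and 7.18, 7.26 and 7.52 in Ncl-1 +Tc. It read 6.57, 6.75 and 6.69 in Ncl-2 -Tc and 7.80, 7.32 and 7.56 in Ncl-2 +Tc. The groups did not overlap in either nucleolin line. The EGFP line read 6.21, 6.86 and 5.997 without Tc and 6.48, 6.70 and 6.56 with it, and those overlapped.

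Aen rose by 0.89 ± 0.22 in the Ncl-2 line (1.85-fold, adjusted p by limma = 0.0198). This call did not pass without replicate 1, 2 or 3 of Ncl-2 -Tc (adjusted p = 0.0668, 0.0552 and 0.0502) or without replicate 1 of Ncl-2 +Tc (adjusted p = 0.0984). It also did not pass in the authors' deposited normalized table (0.98, adjusted p = 0.0534) or with median scaling (0.81, adjusted p = 0.282). In the Ncl-1 line the change was 0.59 ± 0.22 (adjusted p = 0.131), which passed with the replicate block (adjusted p = 0.0423) and with the mean of all kept probes, which includes a probe kept only through its induced groups (0.71, adjusted p = 0.0339). The EGFP line had a change of 0.23 ± 0.22, and the nucleolin lines exceeded it by 0.52 ± 0.27 (adjusted p = 0.473).

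Another Aen probe, ILMN_2656453, was detected on all 18 arrays. Its changes were 0.67 ± 0.28 in the Ncl-1 line (adjusted p by limma over all probes = 0.208, and 0.0434 with the block) and 0.72 ± 0.28 in Ncl-2 cells (adjusted p = 0.161, and 0.0295 with the block). The dimmest kept probe, ILMN_2924083, was detected on all 3 arrays only in Ncl-1 +Tc and Ncl-2 +Tc, so it was kept only through the groups where it is high. Its changes of 0.86 ± 0.23 and 0.74 ± 0.23 are therefore a description and give no support to the Aen call.

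Aen is shown because, among the death genes with RefSeq promoter windows (Fas, Apaf1, Bbc3 and Aen), its windows alone held a p53 half-site. The 1 match lies in the overlap of its 2 windows. The Fas, Apaf1 and Bbc3 windows held 0, and sites outside the windows were not searched. The 30 bases lie at chr7:78895927-78895956 on the plus strand of GRCm38.p6, and capitals mark the match. Of all windows, 0.0731% held a pair of half-sites close enough to form a full site.
Aen: agccgaagccGGGCTTGTCCgggcaaggag

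Zmat3 encodes an RNA-binding protein that acts on the stability and splicing of transcripts. Its single probe read 10.35, 10.25 and 11.41 in Ncl-1 -Tc and 11.27, 11.42 and 11.95 in Ncl-1 +Tc. It read 10.13, 10.15 and 11.24 in Ncl-2 -Tc and 11.09, 11.35 and 11.97 in Ncl-2 +Tc. The groups overlapped in both lines, and replicate 3 was the highest array of every group, by 0.87 over the others on average. EGFP cells read 10.58, 10.72 and 11.28 without Tc and 10.77, 10.16 and 11.47 with it.

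The Zmat3 change was 0.88 ± 0.41 in the Ncl-1 line (adjusted p by limma = 0.247) and 0.97 ± 0.41 in Ncl-2 cells (adjusted p = 0.189), with -0.06 ± 0.41 in the EGFP line. Every numbered pair of arrays rose in both nucleolin lines, by 0.54 to 1.17 and by 0.73 to 1.20. With the replicate block both changes passed (adjusted p = 0.00222 and 0.00103), and so they did on replicates 1 and 2 alone (1.05, adjusted p = 0.0156, and 1.08, adjusted p = 0.00946). The nucleolin lines exceeded the EGFP line by 0.98 ± 0.51 (adjusted p = 0.445, and 0.00691 with the block).

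Across the 7 genes, the replicate block raised the number called higher from 2 to 5 in the Ncl-1 line and from 3 to 6 in the Ncl-2 line. The genes called in the Ncl-2 line with the block were all but Tnfrsf10b. With the block, 14.2% of all genes were called higher in the Ncl-1 line and 13.9% in the Ncl-2 line. The response of the nucleolin lines exceeded that of the EGFP line for 2 of the 7 genes, Fas and Apaf1, and for 4 with the block, which added Bbc3 and Zmat3. Over all genes, 2.53% were higher and 0.758% lower in that contrast, and 8.85% were higher with the block. The median difference of the 7 genes was 0.98, beside -0.04 over all genes.

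The response to the Ncl-1 siRNA was not distinguishable from that to the Ncl-2 siRNA for any of the 7 genes. The difference, Ncl-1 minus Ncl-2, was -0.12 ± 0.33 for Fas and -0.15 ± 0.39 for Apaf1. Over all genes 0% were called higher and 0% lower in this contrast by limma. At an unadjusted p below 0.05 there were 41 genes, and 299 with the block, none of them among the 7. These counts too are below the rate that unchanged genes would give, so they do not show that the responses were equal.

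Other p53 targets were taken as a list of 35 genes, also chosen with earlier results of these data known, of which 31 were tested. In the Ncl-1 line 12 were called higher and 0 lower, beside 5.38% and 2.74% of all genes. In the Ncl-2 line 11 were called higher and 0 lower, beside 6% and 3.14% of all genes. With the block the counts of the list were 20 and 0, and 19 and 1. The block called 14.2% of all genes higher and 12.5% lower in the Ncl-1 line, and 13.9% and 13.1% in the Ncl-2 line. The median changes were 0.98 and 0.95, and 0.04 in the EGFP line, where 0 were called and 0 had an unadjusted p below 0.05 with limma. In the nucleolin minus EGFP contrast 5 were called higher and 0 lower, and 16 higher with the block. The shares of all genes there were 2.53% higher and 0.758% lower, and 8.85% higher with the block.

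The 4 listed targets of smallest p in that contrast have various roles. Mdm2, the ubiquitin ligase that restrains p53, rose by 2.30 ± 0.29 in the Ncl-1 line (adjusted p by limma = 0.000147) and by 2.43 ± 0.29 in Ncl-2 cells (adjusted p = 8.23e-05). Phlda3, an inhibitor of Akt, rose by 2.15 ± 0.30 and 1.72 ± 0.30 (adjusted p = 0.000362 and 0.00192). Ephx1, an epoxide hydrolase, rose by 2.03 ± 0.29 and 1.68 ± 0.29 (adjusted p = 0.000397 and 0.00164). Trp53inp1, a nuclear protein that p53 induces under stress, rose by 1.43 ± 0.23 and 1.59 ± 0.23 (adjusted p = 0.00102 and 0.000463), and these calls did not pass with the mean of its probes (adjusted p = 0.306 and 0.225) or with median scaling (adjusted p = 0.0977 and 0.0713).

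The partners of the death receptors were a list of 12 genes. Of these 12 listed ligands, receptors, adaptors and effectors, 8 were tested. In each nucleolin line 1 was called higher and 0 lower, with medians of -0.09 and -0.12. The shares of all genes called higher were 5.38% in the Ncl-1 line and 6% in the Ncl-2 line. The gene called was Tnfrsf22, a decoy receptor for Trail in the mouse. It read 9.76, 9.12 and 11.24 in Ncl-1 -Tc and 12.48, 11.58 and 13.45 in Ncl-1 +Tc, and 11.20, 10.60 and 10.44 in Ncl-2 -Tc and 13.40, 13.38 and 12.60 in Ncl-2 +Tc. The groups did not overlap in either line. It rose by 2.46 ± 0.51 (adjusted p by limma = 0.00641) and by 2.38 ± 0.51 (adjusted p = 0.00756). With the mean of its kept probes the changes were 0.36 (adjusted p = 0.731) and 0.23 (adjusted p = 0.858), so its probes disagreed.

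Casp8, the caspase that death receptors activate, had changes of -0.64 and -0.49. Neither passed, and with the block both did (adjusted p by limma = 0.013 and 0.048). Tnfrsf21, a receptor with a death domain, had changes of -0.58 and -0.47, which passed with the block (adjusted p = 0.0112 and 0.031). With the block, 12.5% of all genes were called lower in the Ncl-1 line and 13.1% in the Ncl-2 line. Bid, which links caspase-8 to mitochondria, had changes of -0.21 and -0.37.

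The Bcl2 family and caspase machinery, 19 of 27 listed genes tested, had 0 genes called in either nucleolin line by limma, and 2 in each at an unadjusted p below 0.05. Of all 10557 genes, 2158 in the Ncl-1 line and 2192 in the Ncl-2 line had such an unadjusted p. Called higher were 5.38% and 6% of all genes, and called lower 2.74% and 3.14%. The machinery list leaves out Bbc3, Pmaip1 and Apaf1, which are among the death genes, and Casp8 and Bid, which are among the receptor partners. Its values therefore do not describe the whole family. With the block 2 were called higher and 3 lower in each line, shares near the 14.2% and 13.9% of all genes called higher and the 12.5% and 13.1% called lower. The medians were -0.22 and -0.20. Bok, a pore-forming relative of Bax, had changes of -1.23 and -0.89, which passed with the block (adjusted p = 0.00388 and 0.0241) and with the mean of its kept probes (-1.05, adjusted p = 0.00773, and -0.88, adjusted p = 0.0217). Bcl2l11 (Bim), a BH3-only protein, had changes of 0.65 and 0.69 (adjusted p with the block = 0.02 and 0.013). Cycs, the cytochrome c that Apaf1 binds, had changes of -0.51 in the Ncl-1 line (adjusted p = 0.149, and 0.0191 with the block) and -0.25 in Ncl-2 cells (adjusted p = 0.586, and 0.236 with the block). Bak1, which forms pores as Bax does, had changes of -0.25 and -0.74.

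**Figure D4:**
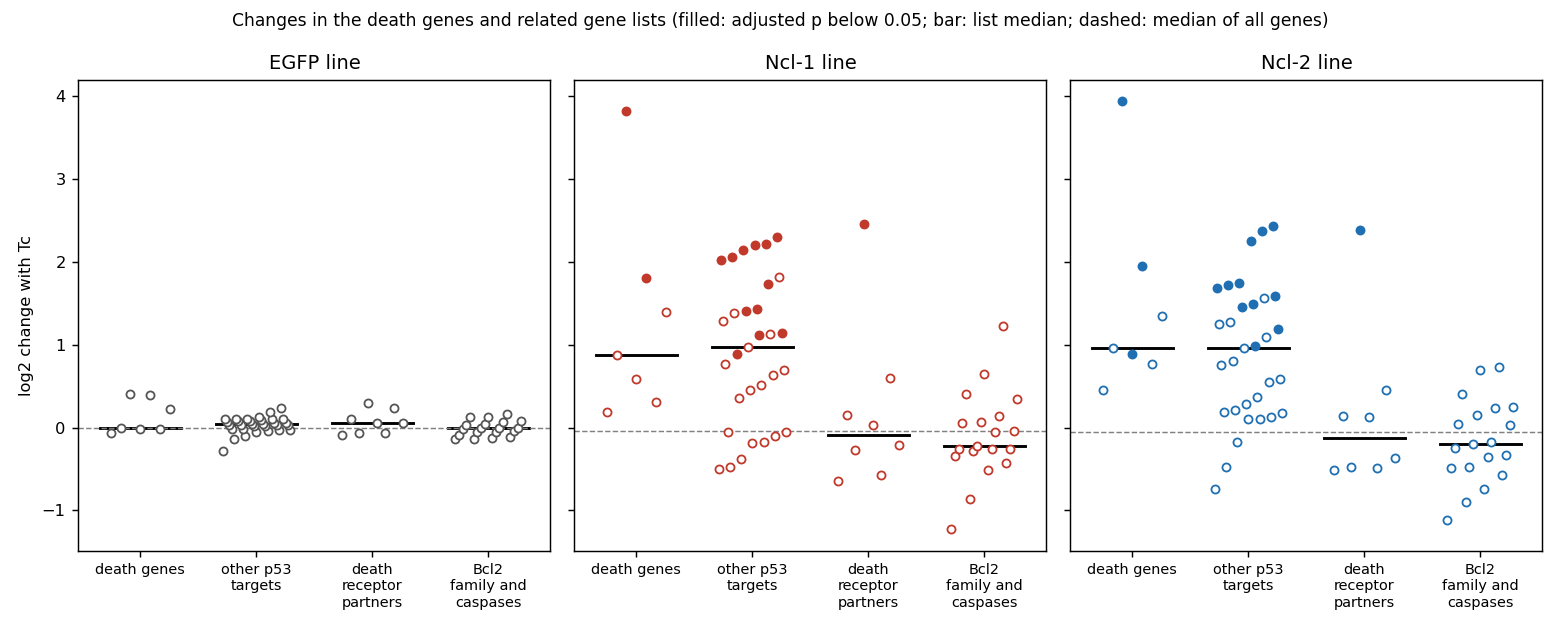
Log2 change with Tc (y axis) of each tested gene in the death genes and the 3 related lists (x axis), in each line, with filled points for genes whose adjusted p was below 0.05, a bar at each list's median and a dashed line at the median of all genes. The death genes and the other p53 targets have medians of 0.88 to 0.98 in the nucleolin lines, the death receptor partners and the Bcl2 family and caspases -0.09 to -0.22, and in the EGFP line 0 genes are filled. Bbc3, Pmaip1 and Apaf1 are placed with the death genes only, and Casp8 and Bid with the receptor partners only.

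Genes whose pattern over the 18 arrays was most like that of Fas or Apaf1 were found by the root mean square difference of centred log2 signals. Closest to Fas were Cnga3 (0.365) and Snx20 (0.412), where the median over all genes was 1.84. Closest to Apaf1 were Fam214a (0.179) and Arhgef4 (0.199), with a median of 1.01.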

How the data were processed

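Per the labels' protocols, total RNA from Trizol was purified on RNeasy columns, treated with DNase I and labelled as biotin cRNA. The authors deposited a probe intensity table not normalized between arrays, beside each array's detection p-values, and summarised with GenomeStudio 2010.1 per the submitters' processing notes. A second intensity table that the authors deposited was already normalized (the method is not stated in the labels or headers), has medians of 7.55 to 7.59 on replicates 1 and 2 and 9.95 to 9.99 on replicate 3, and served as an alternative. Intensities were corrected with limma 3.58.1 (normexp from detection p-values, offset 16), quantile normalized and taken to log2 in R 4.3.3. Of 45281 probes, 19154 were kept. GEO's platform annotation gave 34885 probes 1 symbol, 18 several and 10378 none. Each of 10557 genes is its kept probe of highest mean signal. Detected probes made up 40.0% to 46.4% of each array, and precision is limited by the number of arrays. All 18 arrays entered 1 linear model of 6 group means (lmFit, contrasts.fit, eBayes), two-sided, threshold 0.05. The fitting code was tested on simulated data. Deviations from group means correlated above 0.1 in all 45 same-number pairs (r from 0.298 to 0.958) and in 25 of 90 others. Since replicate 3 stood apart in every group, this check cannot tell whether replicates 1 and 2 are paired by number. No arrays were identical.

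The death genes and gene lists were chosen with earlier results of these data known. Named genes are the death genes, Ncl, from each other list the 4 genes with the lowest p for nucleolin minus EGFP, and the 2 most like patterns for Fas and Apaf1. Trp53 itself is not reported here. Promoter windows, from 250 bases before each start, are RefSeq's for GRCm38.p6. Fas, Apaf1, Bbc3 and Aen matched, and Tnfrsf10b, Pmaip1, Perp and Zmat3 are named only.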

Additional observations from a re-analysis of the deposited data

Results flagged for a closer look

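The response to Tc differed between the nucleolin lines and the EGFP line, by a test of the difference itself in limma, for 9 genes among the death genes, Ncl, Ikbip and the genes named from the lists. The list genes were named by their small p in this same contrast, and Ikbip after its values were seen. Their passing, and the count of 9, are therefore a description. Over all genes, 2.53% were called higher and 0.758% lower in this contrast. Among the death genes these were Fas, with a difference of 3.88 ± 0.28 (adjusted p = 6.4e-06), and Apaf1, with 1.90 ± 0.34 (adjusted p = 0.00484, and 0.0858 with median scaling). Ncl, the target of the siRNAs, differed by -4.59 ± 0.44 (adjusted p = 5.34e-05).

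Among the other p53 targets, the difference was 2.33 ± 0.35 for Mdm2 (adjusted p by limma = 0.00162), 1.76 ± 0.36 for Ephx1 (adjusted p = 0.0116) and 1.46 ± 0.28 for Trp53inp1 (adjusted p = 0.00885). The Trp53inp1 difference did not pass in the authors' deposited normalized table (adjusted p = 0.0778), with median scaling (adjusted p = 0.224) or with the mean of its probes (adjusted p = 0.613). Phlda3 differed by 1.71 ± 0.37 (adjusted p = 0.0178), which did not pass without replicate 1 or 2 of EGFP -Tc (adjusted p = 0.0622 and 0.0747) or replicate 3 of EGFP +Tc (adjusted p = 0.0595). Tnfrsf22 differed by 2.49 ± 0.62 (adjusted p = 0.0387) and passed in 6 of the 18 fits that left out 1 array and in 5 of the 10 other alternatives. Ikbip, the neighbour of Apaf1, differed by 1.27 ± 0.26 (adjusted p = 0.0127), which did not pass without replicate 2 of EGFP +Tc (adjusted p = 0.052) or with median scaling (adjusted p = 0.171).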

How the results depend on the processing

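The calls of Fas and Apaf1 in both nucleolin lines held under all 10 alternatives and all 18 fits that left out 1 array. The size of the Fas change depended on the processing. Over the 10 alternatives it was 3.303 to 4.165 in the Ncl-1 line and 3.393 to 4.318 in the Ncl-2 line. With the replicate number as a block, genes called went from 857 to 2819 in the Ncl-1 line, from 964 to 2842 in the Ncl-2 line, from 347 to 1513 in nucleolin minus EGFP, and from 104 to 910 and from 98 to 1287 in the uninduced Ncl-1 and Ncl-2 lines against EGFP. Death genes called higher went from 2 to 5, 3 to 6, 2 to 4, 0 to 1 and 0 to 1. On replicates 1 and 2 alone, 1678 genes and 5 death genes were called in the Ncl-2 line, 632 genes in nucleolin minus EGFP, 1 in Ncl-1 minus Ncl-2, and 233 and 241 in the uninduced comparisons. Median scaling gave 553, 510, 230, 16 and 27 genes in the same order as the block, with 1 death gene in nucleolin minus EGFP, and moved the median change of all genes from -0.00 to -0.14 in the EGFP line and from -0.05 to -0.13 in the Ncl-2 line. Without background correction 1 gene was called in Ncl-1 minus Ncl-2. The mean of all kept probes gave 4 death genes in the Ncl-1 line. Array weights gave 1 gene in the EGFP line, then 4736, 5993, 2974, 994 (Ncl-1 minus Ncl-2), 3205 and 3569, with 5, 6, 5, 1 and 1 death genes called higher. They also called Fas lower in uninduced Ncl-1 than in uninduced EGFP (-0.35, adjusted p by limma = 0.0394). In uninduced Ncl-2 they called Apaf1 (-0.59, adjusted p = 0.00525) and Zmat3 (-0.51, adjusted p = 0.0234) lower. The weights did not reach their convergence tolerance.

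Leaving out 1 array gave 524 to 923 genes in the Ncl-1 line, 535 to 1055 in the Ncl-2 line, 186 to 399 in nucleolin minus EGFP, 16 to 126 in uninduced Ncl-1 and 15 to 117 in uninduced Ncl-2. The counts moved over 1.5 times without replicate 2 of Ncl-1 -Tc (524), replicate 2 of Ncl-2 -Tc (550), replicate 1 of Ncl-2 +Tc (535), and, for nucleolin minus EGFP, replicates 1 and 2 of EGFP -Tc (223 and 186) and replicate 2 of EGFP +Tc (195). Death genes called were 2 to 3, 2 to 4, 2 in all such fits of nucleolin minus EGFP, and 0 to 1 in uninduced Ncl-1.

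Of 2807 comparisons of single named genes with an alternative, 2682 kept their call or, for untested replicate 3 differences, stayed within the replicate spread. Of the rest, 64 became calls, 40 stopped being calls and 21, from replicate 3 alone, moved beyond the replicate spread. No called change turned its sign, and changes of sign between values that passed in neither were not counted. The cause was not tested. The slide as a block was not run, since the column headers give no slide. Signals near background, as for Perp and the dim probes, limit what can be read from them.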

Other observations

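Before induction, some of the death machinery already differed between lines. Cycs, cytochrome c, read 12.46, 12.57 and 12.25 in EGFP -Tc, 11.31, 11.80 and 11.36 in Ncl-1 -Tc and 11.36, 11.85 and 11.35 in Ncl-2 -Tc. Both nucleolin lines were below the EGFP line on every uninduced array. The differences were -0.94 ± 0.20 for Ncl-1 (adjusted p by limma = 0.0345) and -0.91 ± 0.20 for Ncl-2 (adjusted p = 0.0457). For Casp8 the differences were 1.27 ± 0.35 and 1.25 ± 0.35, and neither passed (adjusted p = 0.112 and 0.12), while both did with the replicate block (adjusted p = 0.0005 and 0.000634). These comparisons share the EGFP -Tc arrays, and the siRNA and the line cannot be told apart in them.

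The uninduced level of Tnfrsf22 also varied by line. It read 8.93, 8.48 and 8.52 in EGFP -Tc, below every array of the uninduced nucleolin lines. The differences were 1.40 ± 0.51 for Ncl-1 (adjusted p by limma = 0.296) and 2.10 ± 0.51 for Ncl-2 (adjusted p = 0.069), so neither passed, and the Ncl-2 difference passed with the replicate block (adjusted p = 0.00744).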
